A study of Gallus gallus with 16 samples.

Results

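The measurement described here is, for each gene, how far the response of the chick pineal gland to 2 h of light differed between the end and the beginning of the night. It was the light effect at the end of the night minus the light effect at its beginning, over 12 of the 16 arrays, for 12638 genes: 6694 with a symbol and 5944 probes that carry none. The birds were Rhode Island Red chicks, male and 1 week old; all dark controls and the birds of both 2 h exposures were kept on 12 h of light and 12 h of darkness. Zeitgeber time (ZT) counts hours from lights on. In the late-night experiment the light ran from ZT22 to ZT24 and birds were killed at ZT0, with 4 pools of glands from lit birds and 4 from birds kept dark. In the early-night experiment the day was extended by 2 h, from ZT12 to ZT14, and birds were killed at ZT14, with 2 lit and 2 dark pools. Each pool held 5 to 6 glands, so a pool and not a bird is the replicate, and the tissue was the whole gland. Another experiment, a long day killed at ZT14 with 2 lit and 2 dark pools, is outside the difference and is set beside it; its lit birds had 17 h of light and 7 h of darkness by the sample titles but 15 h and 9 h by the design text. The labels give no genetic alteration and no drug in any group.

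The avian pineal gland is itself photosensitive. It holds photoreceptor cells with their own opsin and their own circadian clock, and releases melatonin during the night, which light suppresses. The same light is also known to shift the clock in opposite directions by phase: light early in the night delays it and light late in the night advances it. A gene that light moves by the same amount at both ends of the night has a difference near 0, and effects of opposite sign, or of 1 sign and unequal size, give a difference away from 0. The immediate early genes and the growth factor gene BDNF are known targets of cAMP and calcium signals.

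Each array carried 1 pool against a reference mixed from all 16 pools. Its deposited log ratios were read as log2, but neither the base nor the numerator is stated, so "higher" means a higher deposited ratio; with the other numerator every sign below would turn together. Between 15558 and 15603 probes were measured per array, and array medians lay from -0.0439 to 0.0230. The number of arrays limits the precision: the median standard error over genes was 0.18 for the late effect, 0.25 for the early effect and 0.31 for their difference. The 12 arrays fall into 2 series of array numbers. The second series holds 1 lit and 2 dark pools of ZT0, whose log ratios correlated with each other across genes at 0.482 to 0.557, against 0.0587 to 0.288 with the ZT0 arrays of the first series. The ZT0 arrays of the first series correlated among themselves at 0.0371 to 0.426. Results are therefore also given within the first series, which holds 3 lit and 2 dark pools at ZT0 and all 4 pools at ZT14. Clock time, experiment and array coincide and cannot be told apart. Ratios against a pineal reference do not show whether the tissue is pineal gland. In whole glands, fewer cells of a type and less RNA per cell cannot be told apart.

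For 5 genes the light effect differed between the ends of the night at an adjusted p under 0.05 (limma, Benjamini-Hochberg over all genes), which is 0.0396% of those tested. The difference was positive for LONRF1, MACIR and the unnamed probe DT40subNB_9B10, with light at ZT0 on the higher side and light at ZT14 on the lower side. It was negative for BDNF and TXN. LONRF1 encodes a RING finger and LON domain protein of the ubiquitin ligase type. MACIR is a small protein that in mammals binds the ciliary trafficking factor UNC119 and is known from macrophages. BDNF is a secreted neurotrophin induced by activity and cAMP, and TXN is thioredoxin, the main protein disulfide reductase of the cytosol. Each of the 5 was read by 1 probe.

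LONRF1 had log2 ratios of 0.50, 0.41, 0.60 and 0.67 in the lit pools of ZT0 and of -0.33, -0.34, -0.13 and -0.68 in the dark pools. At ZT14 the lit pools had -0.65 and -0.60 and the dark pools 0.75 and 0.72. Light stood above dark in every pool at the end of the night and below it in every pool at the beginning, with no overlap at either time. The late effect was 0.91 ± 0.13 (SE, 4 against 4 pools) and the early effect -1.36 ± 0.18 (2 against 2). Their difference was 2.27 ± 0.22, a 4.83-fold ratio (adjusted p = 0.00645, limma). It was 2.19 within the first series (adjusted p = 0.0245). With the dark pools of the long-day experiment, at 0.51 and -0.52, added to the ZT14 controls it was 1.90 and no longer called (adjusted p = 0.356). The same addition took the adjusted p to 0.110 for MACIR, 0.620 for BDNF and 0.675 for TXN, and left it at 0.0397 for DT40subNB_9B10.

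MACIR had 0.65, 0.64, 0.57 and 0.90 in the lit pools of ZT0 and 0.37, 0.11, 0.41 and 0.15 in the dark ones. At ZT14 it had 0.30 and 0.15 with light and 1.68 and 1.83 in the dark. The groups did not overlap at either time, and the gap at ZT14 was the wider. The late effect was 0.43 ± 0.12 and the early effect -1.53 ± 0.17. The difference was 1.96 ± 0.21 (adjusted p = 0.00845), and 1.91 within the first series, where the adjusted p was 0.0877.

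The probe DT40subNB_9B10, which the platform annotation gives no gene, had 0.67, 0.79, 1.12 and 0.78 with light at ZT0 and 0.07, 0.24, -0.04 and -0.23 in the dark. At ZT14 it had 0.25 and -0.17 with light and 1.50 and 1.19 in the dark. It thus followed the pattern of LONRF1, with no overlap at either time. Its difference was 2.13 ± 0.27 (adjusted p = 0.0203), and 2.00 within the first series (adjusted p = 0.378). Leaving out any 1 of 5 pools brought its adjusted p above 0.05.

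BDNF ran the other way. Its log2 ratios were -1.14, -1.12, -0.95 and -1.30 with light at ZT0 against -0.04, -0.45, -0.00 and -0.36 in the dark. At ZT14 they were -0.12 and -0.33 with light against -1.24 and -1.51 in the dark. Light stood below dark in every pool at the end of the night and above it in every pool at the beginning. The late effect was -0.91 ± 0.14, the early effect 1.15 ± 0.20 and the difference -2.06 ± 0.25, a 4.18-fold ratio (adjusted p = 0.0140). It was -1.97 within the first series, with an adjusted p of 0.201. Leaving out lit pool 1 of ZT14 or lit pool 2 of ZT0 took the adjusted p past 0.05, with differences between -2.20 and -1.93 over all 12 pools left out.

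In TXN the lit and dark pools separated in the early night alone. At ZT0 it had -1.08, -0.77, -0.70 and -1.18 with light and -1.10, -0.92, -0.77 and -0.82 in the dark, and these groups overlapped. At ZT14 it had 0.50 and 0.31 with light and -1.36 and -2.04 in the dark. The late effect was -0.03 ± 0.17, the early effect 2.11 ± 0.24 and the difference -2.13 ± 0.30 (adjusted p = 0.0401). This call rests on few pools: the adjusted p stayed under 0.05 in 2 of the 12 fits that left out 1 pool, the ones without dark pool 1 of ZT14 or lit pool 3 of ZT0. Within the first series the difference was -1.94 (adjusted p = 0.608). The fit shares 1 variance per gene over the 12 arrays, so the standard errors above do not measure the spread of the ZT14 pools alone. Group standard deviations of TXN were 0.49 in the dark and 0.14 with light at ZT14, against 0.15 and 0.24 at ZT0.

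**Figure D1:**
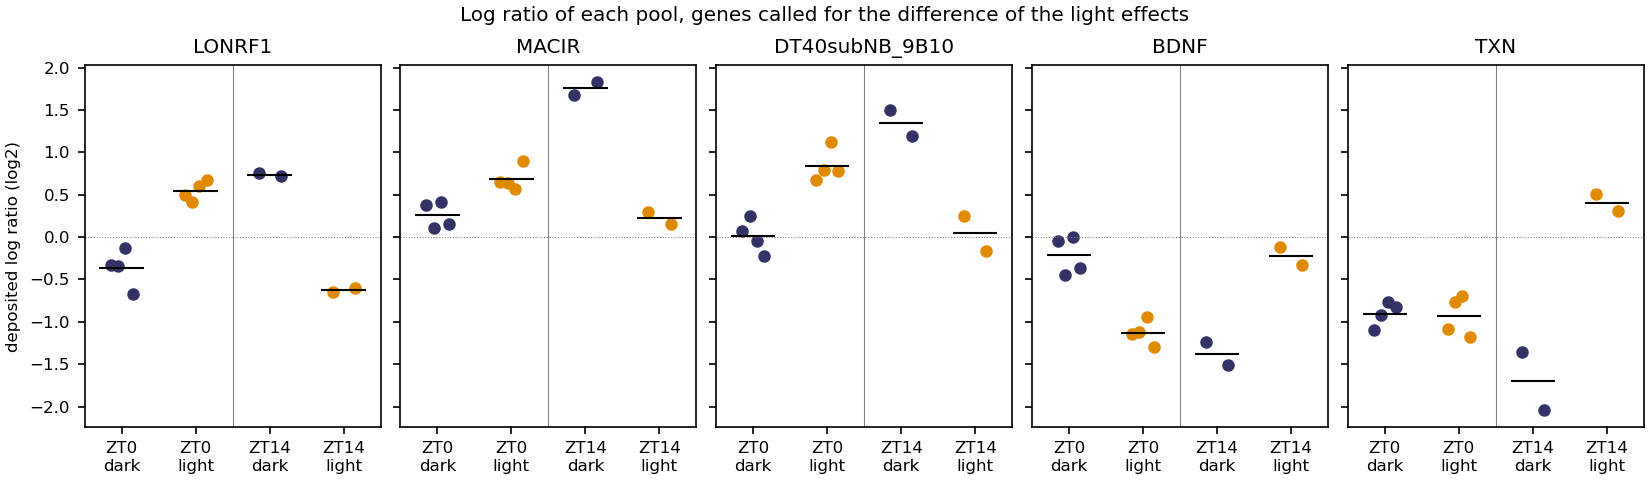
Deposited log2 ratio against the common reference (vertical axis) of the 5 called genes in each pool, with a point per pool and a bar at the group mean, for lit and dark pools at ZT0 and ZT14. LONRF1, MACIR, DT40subNB_9B10 and BDNF separate lit from dark pools in opposite directions at the ends of the night, and TXN overlaps at ZT0.

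For LONRF1 and BDNF the 4 groups fell onto 2 levels. LONRF1 averaged 0.54 with light at ZT0 and 0.73 in the dark at ZT14, but -0.37 in the dark at ZT0 and -0.62 with light at ZT14. BDNF averaged -1.13 with light at ZT0 and -1.38 in the dark at ZT14, but -0.21 in the dark at ZT0 and -0.23 with light at ZT14. The lit glands of one time thus lay near the dark glands of the other in these arrays. The dark ZT14 level rests on 2 pools. The dark ZT14 pools of the long-day experiment read -0.38 and -0.39 for BDNF, nearer its other level, and 0.51 and -0.52 for LONRF1. The labels lit and dark were taken as given, with no measured gene to check them; were they exchanged in 1 experiment, that light effect would change sign and these opposed effects would become effects of 1 sign. DT40subNB_9B10 matched on one side: its dark ZT0 pools and lit ZT14 pools differed by -0.03, and its lit ZT0 pools lay 0.51 below the dark ZT14 pools. MACIR did not share the upper level, since lit ZT0 pools lay 1.07 below dark ZT14 pools. TXN had its own arrangement. It averaged -0.93 with light and -0.90 in the dark at ZT0, between -1.70 in the dark and 0.41 with light at ZT14.

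The long-day experiment used the same time of death and other birds. There LONRF1 had -0.77 and -0.68 in the lit pools and 0.51 and -0.52 in the dark ones, a light effect of -0.72 that did not pass the threshold (adjusted p = 0.180, limma on all 16 arrays). MACIR was lower with the long day by a log2 difference of -1.29 (adjusted p = 0.0127), BDNF higher by 0.89 (adjusted p = 0.0387) and TXN higher by 1.61 (adjusted p = 0.00551). DT40subNB_9B10 had -0.85 (adjusted p = 0.0672). For all 5 the sign was that of the early light effect. Log ratios spread more widely over probes on the 4 arrays of the long-day experiment, with standard deviations of 0.82 to 1.08. On the other 12 arrays these were 0.25 to 0.55. The fit shares 1 variance per gene over all 16 arrays, so its p-values do not measure the spread of the long-day pools alone. When the long day took the place of the early light, which keeps the same late-night pools, all 5 passed the threshold, with differences of 1.63 for LONRF1, 1.71 for MACIR, 1.68 for DT40subNB_9B10, -1.81 for BDNF and -1.64 for TXN. That fit, also with 1 shared variance, called 111 genes in all.

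Beyond the 5 calls the difference was small for most genes. Its median over all genes was -0.00712 and its standard deviation 0.449, the middle 80% of genes lay between -0.515 and 0.508, and 438 genes (3.47%) differed by over 1. The late and early effects, which share no pool, correlated across genes at a Pearson coefficient of -0.0339 and a Spearman coefficient of -0.0511; genes are not independent replicates, so this is a description. They had opposite signs in 6670 genes, 52.8%. At an unadjusted p under 0.05, the difference passed for 819 genes, 6.48% of those tested. Of these, 396 were positive (3.13%) and 423 negative (3.35%). The selection itself favours opposed effects, and 748 of the 819 had them. The early effect was the larger of the pair in 628, with 2 pools a group behind it against 4 for the late effect. In 41 of the 819 both effects had an unadjusted p under 0.05 (limma), with opposite signs in 38. The early effect alone passed in 416, the late effect alone in 193 and neither in 169, so most of the opposed signs include an effect not told from 0.

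**Figure D2:**
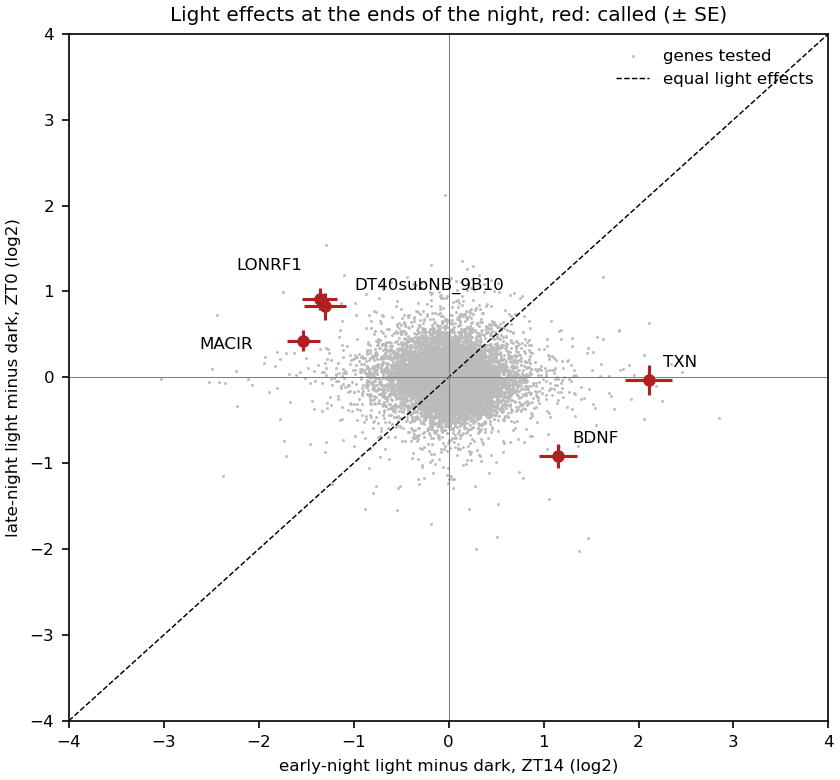
Early-night light effect (horizontal axis) and late-night light effect (vertical axis), both as log2 differences of lit minus dark pools, with a grey point per gene for all 12638 genes, the 5 called genes in red with bars of 1 SE, and a dashed line where the effects are equal. The cloud is centred near 0 with little tilt, LONRF1, MACIR and DT40subNB_9B10 lie at upper left, BDNF at lower right, and TXN far right with a late effect near 0.

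At the separate ends of the night few genes were called. The late effect alone passed the adjusted threshold for 0 genes, with 844 at an unadjusted p under 0.05 (limma), 6.68%, and a smallest adjusted p of 0.121. The early effect alone passed for TXN, MACIR and LONRF1, 0.0237% of genes, with 803 unadjusted, 6.35%. Light and dark pools failed to overlap in 4.58% of genes at ZT0 and, with 2 pools a side, in 35.2% at ZT14, so a lack of overlap at ZT14 alone says little. They failed to overlap at both times, in opposite directions, in 116 genes, 0.918% of those tested. They failed to overlap at both times in the same direction in 92 genes, 0.728%.

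The 12 genes with a symbol of smallest p in each direction describe the strong differences among named genes; unnamed probes other than the called one were left out. With DT40subNB_9B10 they make 25, 13 positive and 12 negative, with differences of 0.846 to 2.27 in size; the 20 not called had adjusted p values of 0.139 to 0.588. In all 25 the late and early effects had opposite signs, as choosing the largest differences favours. Both effects had an unadjusted p under 0.05 (limma) in 12 of them, and the early effect alone in 13. In 24 the early effect was the larger, and MEP1A was the exception. The choice favours this too, since the early effect rests on fewer pools, with a median standard error of 0.25 against 0.18. In 10 the light and dark pools did not overlap at either time, against 0.918% of all genes in opposite directions. Choosing by small p favours separated groups. In 19 of the 25 the long day had the sign of the early light, against 52.8% of all genes. With the dark pools of the long-day experiment added to the ZT14 controls, all 25 kept their sign, but 8 moved by over 1.5 times: SNAPC5 to 0.34, LYST to 0.99, MYOZ3 to 0.81, CACNG3 to -0.69, SULF2 to -0.94, DPEP1 to -0.74, KPNA4 to 0.54 and CHST15 to 1.37.

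NDUFB2, a subunit of respiratory complex I, had -0.46, -0.54, -0.51 and -0.63 with light at ZT0 and 0.36, -0.34, 0.46 and 0.61 in the dark. At ZT14 it had 1.51 and 1.81 with light and 0.42 and 0.57 in the dark. Light stood below dark at ZT0 and above it at ZT14 without overlap, for a difference of -1.98 ± 0.32 (adjusted p = 0.139), and of -1.68 within the first series. KCNMB4, the accessory subunit of the calcium-activated BK potassium channel found in neurons, had -0.77, -1.29, -1.38 and -0.85 with light at ZT0 and -0.56, -0.38, -0.11 and -0.24 in the dark. At ZT14 it had 0.30 and -0.31 with light and -0.75 and -0.84 in the dark. These groups did not overlap either, and the difference was -1.54 ± 0.32 (adjusted p = 0.253). DPEP1, a membrane dipeptidase, had the same arrangement at a smaller size, with a late effect of -0.35, an early effect of 0.78 and a difference of -1.14 ± 0.23.

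On the positive side, MEP1A, a secreted and membrane metalloprotease of the meprin family, had 0.46, 0.58, 0.93 and 0.67 with light at ZT0 and -0.05, 0.04, 0.09 and 0.15 in the dark. At ZT14 it had 0.46 and 0.57 with light and 1.14 and 0.90 in the dark. The groups were separate at both times, with a late effect of 0.60, an early effect of -0.50 and a difference of 1.11 ± 0.22 (adjusted p = 0.220). KPNA4, an importin alpha that carries proteins into the nucleus, also separated at both times, with effects of 0.31 and -0.58. CHST15, a sulfotransferase of chondroitin sulfate, did so with a difference of 0.85 ± 0.21.

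Most others had little late effect, but it was 0.55 for SLC2A11L1, -0.47 for CACNG3, -0.45 for PSKH1 and 0.31 for MOSPD2. TRA2B, a splicing regulator, had a late effect of -0.02 and an early effect of 0.99. PDIA3, a protein disulfide isomerase of the endoplasmic reticulum (ER), had 0.11 and -0.80. IRAK4, the kinase that carries Toll-like receptor signals, had -0.21 and 1.08. The same side held SLC47A2, an organic cation exporter (difference -1.53 ± 0.28), and the kinase gene PSKH1 (-1.79 ± 0.36). It also held CACNG3, an accessory subunit of AMPA receptors (-1.33 ± 0.28), and SULF2, which trims sulfate from heparan sulfate (-1.42 ± 0.31). ISLR, a secreted protein counted below among the fibroblast and matrix genes, was there too (-1.20 ± 0.26). The positive side held SLC2A11L1, a sugar transporter relative (1.69 ± 0.32), HSPA4L, a heat shock protein of the HSP110 group (1.05 ± 0.23), MOSPD2 (1.15 ± 0.28), MYOZ3, a Z-disc protein of muscle (1.64 ± 0.43), and LYST, which acts in lysosome traffic (2.11 ± 0.53). SNAPC5 (1.72 ± 0.41) was read by 2 probes that disagreed, at -0.15 and 3.59, and its difference ranged from 1.01 without dark pool 1 of ZT14 to 2.43 without dark pool 2.

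**Figure D3:**
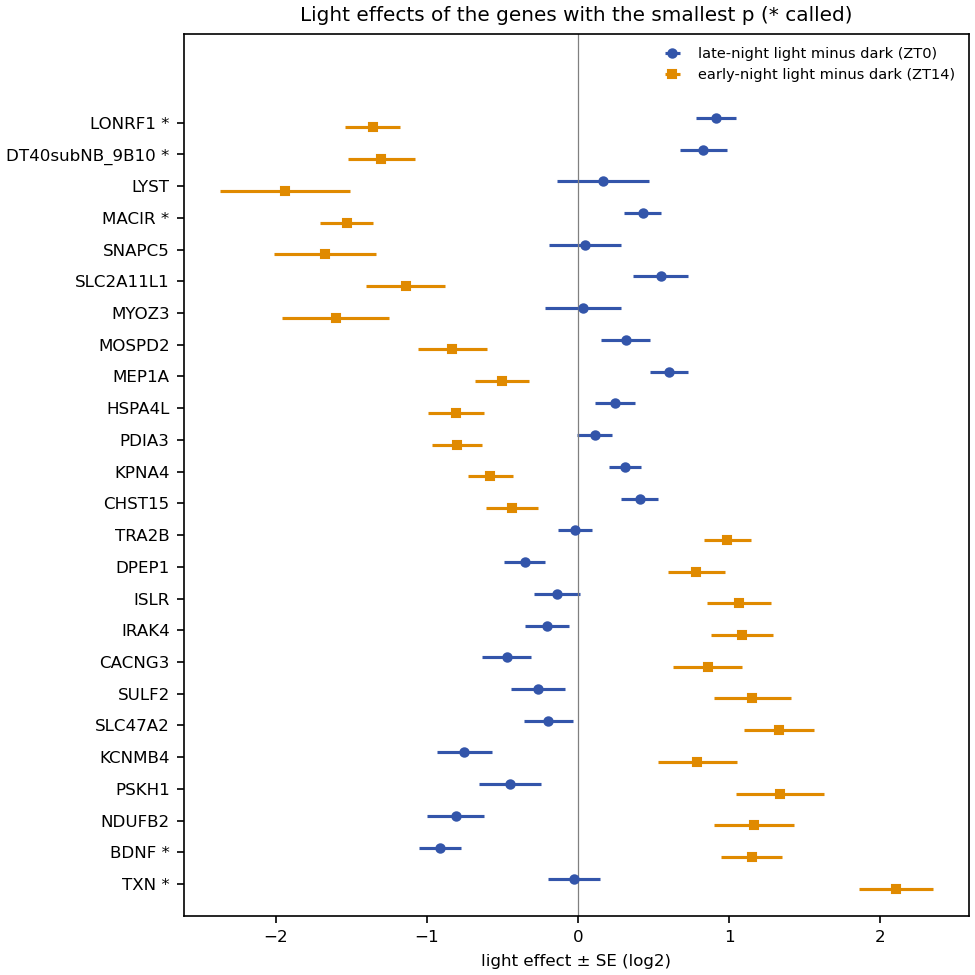
Late and early light effects as log2 differences of lit minus dark pools (horizontal axis, bars of 1 SE) for the 12 genes with a symbol of smallest p in each direction and DT40subNB_9B10 (rows). In each row the effects lie on opposite sides of 0, but in 13 rows the early effect alone had an unadjusted p under 0.05 (limma). In 24 rows the early effect is the farther from 0.

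The gene lists ask whether the difference ran through a pathway. Each is given as counts and a median, with no test of the list. Over all genes the median was -0.00712 and 49.2% were positive. Of all genes 6.48% passed the unadjusted threshold, 3.13% positive and 3.35% negative. A few members past it in a small list say little beside that share. The clock genes gave no call. Of 10 measured members the difference was positive in 7, with a median of 0.27, and CLOCK, the activator that pairs with BMAL1, passed the unadjusted threshold with 0.47 ± 0.21. CLOCK had an early effect of -0.46 and a late effect of 0.00. CRY1, a repressor of that pair, had 1.53 ± 1.13, but its dark ZT0 pools read -0.21, -0.01, -2.83 and -2.46 and split by array series, and the value within the first series was 0.66. CRY2 had 0.19 ± 0.34, the period gene PER3 -0.42 ± 0.40 and the light-responsive repressor BHLHE40 -0.36 ± 0.27. For each of CRY2 and PER3 the sign turned as 1 ZT14 pool was left out: CRY2 ran from -0.08 to 0.46 without dark pool 1 or 2, and PER3 from 0.13 to -0.98 without lit pool 1 or 2.

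Of 14 listed genes of melatonin synthesis and its cofactor 7 were measured: TPH1, MAOA and the cofactor genes GCH1, GCHFR, PTS, SPR and QDPR. AANAT and ASMT were not among them, so the list says nothing of those enzymes. None of the 7 passed the unadjusted threshold, and the median was -0.12. TPH1, which makes the serotonin precursor and is abundant in the gland, had -0.12 ± 0.29. The phototransduction and retinoid list had 9 of 42 genes measured: GNB1, RGS9, and, mostly for retinoid handling, ABCA4, RDH5, RDH10, RGR, RLBP1, RBP4 and STRA6. Its median was -0.30 with 2 of 9 positive, and ABCA4 alone passed the unadjusted threshold (-0.57 ± 0.19). Most of the phototransduction cascade was thus not measured. Among 25 genes of cAMP and calcium signalling 13 were positive and none passed, for a median of 0.02. In the activity-induced list 12 genes were measured, 2 passed in each direction and 1 of them, BDNF, was called. The positive ones were SGK1 (1.47 ± 0.65) and CCN2 (0.61 ± 0.22). CCN2 had -0.51 with the long-day dark pools added to the ZT14 controls. EGR1, the immediate early transcription factor, had -0.06 ± 0.25. SIK1, a kinase that restrains CREB-driven transcription, had -0.82 ± 0.23, with 0.38 and 0.17 in the lit and -0.46 and -0.51 in the dark pools of ZT14 and overlapping groups at ZT0.

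Subunits of the respiratory chain and ATP synthase leaned negative, with 10 of 32 positive and a median of -0.28. The median late effect was -0.07 and the median early effect 0.10. NDUFB2 and ATP5J2 (-0.95 ± 0.22) passed the unadjusted threshold on the negative side, and NDUFV2 passed on the positive side (0.45 ± 0.20). Cytosolic ribosomal proteins did likewise, with 6 of 33 positive and a median of -0.27. Their late effect was positive in 4 and their early effect in 24 of the 33, against 49.1% and 50.1% of all genes. At ZT0 their mean log2 ratio overlapped, at -0.25 to 0.03 in lit and -0.01 to 0.15 in dark pools. The respiratory mean did too, at -0.19 to 0.12 in lit and 0.0046 to 0.18 in dark pools. At ZT14 the lit pools stood above the dark for both lists, with 2 pools a side. Genes of a list are not independent replicates. The 5 that passed the unadjusted threshold were negative, among them RPS23 (-0.84 ± 0.27), RPL10A (-0.63 ± 0.21) and RPL11 (-0.71 ± 0.32). The 3 probes of RPL10A ranged from -1.36 to -0.13. Both medians kept their sign in all 24 alternatives tried for the lists, but the respiratory one was -0.14 without lit pool 3 of ZT0 and the ribosomal one -0.17 without lit pool 1 of ZT14. NDUFV2 had -0.19 with the long-day dark pools added.

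The ER folding list leaned the other way, with 17 of 28 positive, a median of 0.16 and 5 past the unadjusted threshold, all positive. Its late effect was positive in 24 of 28. HSPA5, the ER chaperone BiP, read 0.62, 0.55, 0.79 and 0.97 with light at ZT0 and -0.20, 0.05, 0.17 and -0.10 in the dark. At ZT14 it read 0.92 and 0.94 with light and 0.84 and 1.19 in the dark, so the groups separated at ZT0 alone, and the difference was 0.84 ± 0.24 (adjusted p = 0.641). The 2 probes of HSPA5 gave differences of 0.30 and 1.38. PDIA3 reached its difference from the other side, through ZT14. SDF2L1, an ER chaperone partner, had 0.56 ± 0.23, CANX, the ER lectin calnexin, 1.41 ± 0.48, and SEC23B, a COPII coat protein, 1.19 ± 0.35. SEC23B had 0.76 without lit pool 1 of ZT14 and 0.02 with the long-day dark pools added to the controls. The list median was 0.05 within the first series, 0.05 without dark pool 2 of ZT14 and 0.04 with the long-day dark pools added.

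Heat shock genes had 17 of 28 positive and a median of 0.20, or 0.0044 with the long-day dark pools added, with 2 past the unadjusted threshold on the positive and 1 on the negative side. Thioredoxin and antioxidant genes had 11 of 23 positive and a median near 0, with 4 past it, all negative: TXN, PRDX4, a peroxidase of the ER (-0.68 ± 0.28), HMOX1, heme oxygenase (-0.56 ± 0.23), and GPX7 (-0.62 ± 0.28). The probes of PRDX4 read -1.24 and -0.13, and its value ran from -1.06 without dark pool 1 of ZT14 to -0.31 without dark pool 2. HMOX1 had -0.04 with the long-day dark pools added. Amino acid transporters and ATF4 targets had a median of 0.10 over 13, which turned sign in 7 of the 24 alternatives (-0.15 without dark pool 1 of ZT14), with 2 past the threshold on the positive and 1 on the negative side. Among them SLC1A4, an exchanger of neutral amino acids, had a late effect of 0.34 and an early effect of 1.47. SLC38A2, which takes up neutral amino acids with sodium, had -0.32 and -1.24. Each had the same sign at both times and the larger effect at ZT14, and neither difference passed the adjusted threshold. Cell cycle genes had 9 of 28 positive, a median of -0.18 and 3 past the threshold, all negative. Sterol synthesis, fatty acid synthesis, glucose use, splicing, proteasome and interferon lists had medians between -0.09 and 0.11; of these only the glucose list kept its sign in all 24 alternatives.

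**Figure D4:**
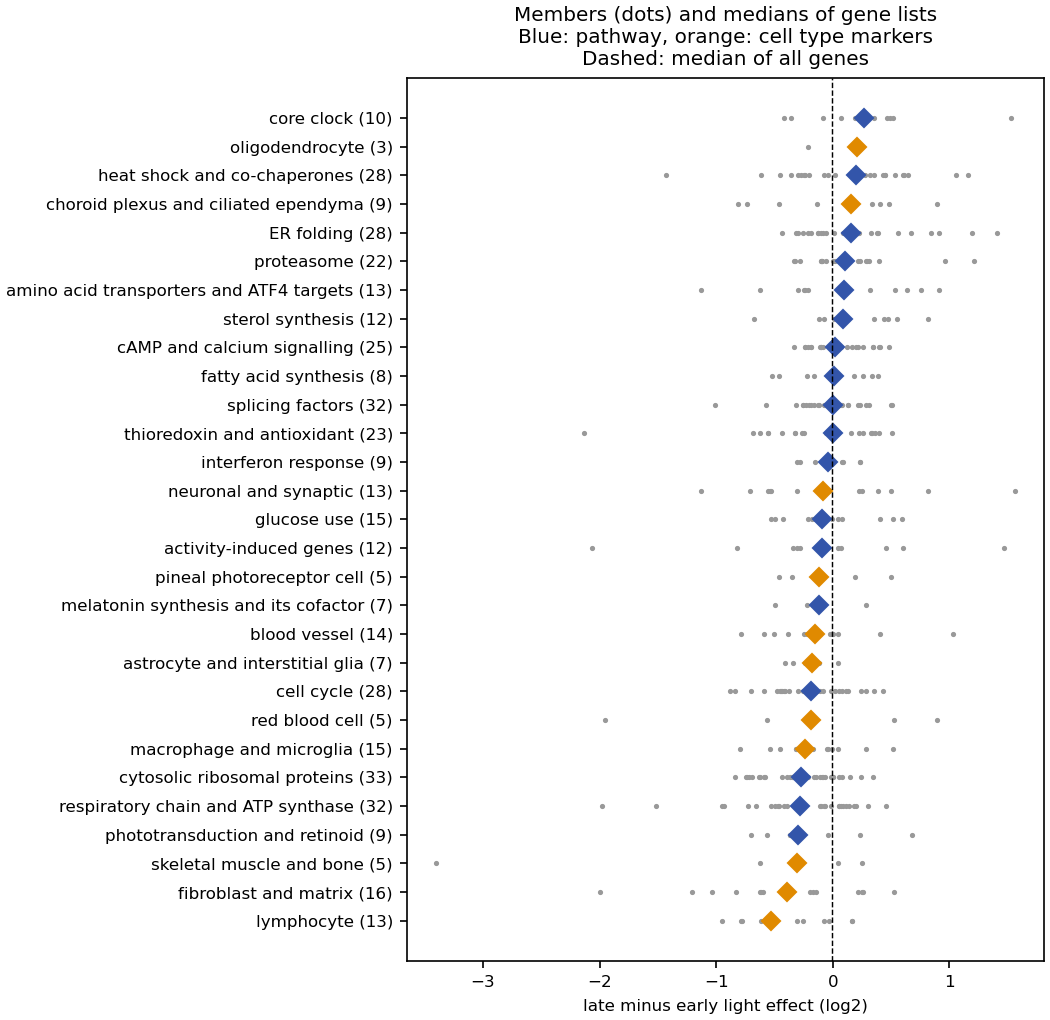
Difference between late and early light effects (log2, horizontal axis) for the measured members of each gene list (rows), with a grey point per gene, a diamond at the list median (blue for pathways, orange for cell type markers), the number measured in brackets and a dashed line at the median of all genes. Ribosomal and respiratory lists lie mostly below 0 with medians of -0.27 and -0.28, and points of all lists spread widely around their medians.

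Markers of cell types are given as counts and medians, and no member of these lists was called. Their counts past the unadjusted threshold also stand beside 6.48% of all genes. Of 13 lymphocyte genes the difference was positive in 2, and the median was -0.53, or -0.15 within the first series and -0.31 without lit pool 3 of ZT0. The list's mean log2 ratio was -0.24 to -0.16 in the lit and -0.0057 to 0.68 in the dark pools of ZT0, and 0.18 to 0.25 in the 4 pools of ZT14. Of 16 fibroblast and matrix genes 4 were positive and 5 passed the unadjusted threshold, all negative, for a median of -0.39, or -0.23 within the first series. Their mean was -0.28 to -0.03 in the lit and 0.0070 to 0.28 in the dark pools of ZT0. Macrophage genes had 3 of 15 positive and a median of -0.24, or -0.13 within the first series and -0.11 without lit pool 3 of ZT0. Red blood cell genes had a median of -0.19 over 5, or -0.0094 within the first series. Of these 5, HBBA passed the unadjusted threshold on the negative side and CA2, a carbonic anhydrase of red cells and other cells (0.90 ± 0.35), on the positive side, and the globin gene HBZ had 0.52 ± 0.42. The 2 probes of CA2 read 0.10 and 1.69. The globin gene HBBA, read at -0.93 to -0.50 with light and 0.22 to 1.01 in the dark at ZT0, had a difference of -1.95 ± 0.45, which ran from -2.58 to -1.33 as 1 of the dark ZT14 pools was left out in turn. Also negative were the bone and matrix genes SPP1 (-3.40 ± 1.25) and MMP13, with a late effect of -1.47 and an early effect of 0.52. SPP1 split by array series, with dark ZT0 pools of -0.19, -0.16, 2.10 and 2.56, and its difference within the first series was -1.53. The median was -0.17 for glia (7 genes measured). It was -0.15 for blood vessel (14), -0.31 for muscle and bone (5), 0.21 for oligodendrocytes (3) and -0.08 for neurons (13). For choroid plexus (9) it was 0.16 and for pineal photoreceptor cells (5) -0.12. These 6 each turned sign in 1 to 6 of the 24 alternatives. The pineal photoreceptor cell genes measured were PAX6, OTX2, NEUROD1, ISL1 and TPH1, of 20 listed. The part of these cells in the negative differences, BDNF, TXN, NDUFB2 and the ribosomal list among them, was not tested.

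The counterpart of the difference is the mean of both light effects, which is also large where light had a large effect at one end alone, as for TXN, with a mean of 1.04. It gave 0 calls, with 708 genes at an unadjusted p under 0.05 (limma), 5.6%, and a smallest adjusted p of 0.0638. AGTR2, an angiotensin receptor, read -0.87, -0.74, -0.65 and -0.67 with light and -0.38, 0.04, -0.52 and -0.15 in the dark at ZT0. At ZT14 it read -1.07 and -1.51 with light and -0.10 and -0.24 in the dark. Light stood below dark at both times, for a mean effect of -0.80 (adjusted p = 0.233). The sizes were uneven, with a late effect of -0.48, an early effect of -1.12 and a difference of 0.64 ± 0.26. In the long-day experiment the AGTR2 light effect was 0.28, of the other sign, with dark pools far apart at -1.69 and 0.81. ANAPC2, a core subunit of the anaphase-promoting complex, was the most even of the named genes, with light above dark by 0.55 at each time and a difference of 0.01 ± 0.25. CYP26C1, which breaks down retinoic acid, stood above at both times with a mean effect of 0.74 and MLYCD, a decarboxylase of malonyl-CoA, below with -0.73. These were less even: the difference was -0.58 for CYP26C1 and 0.47 for MLYCD. With the long-day dark pools added to the ZT14 controls it was 0.30 and 0.15.

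**Figure D5:**
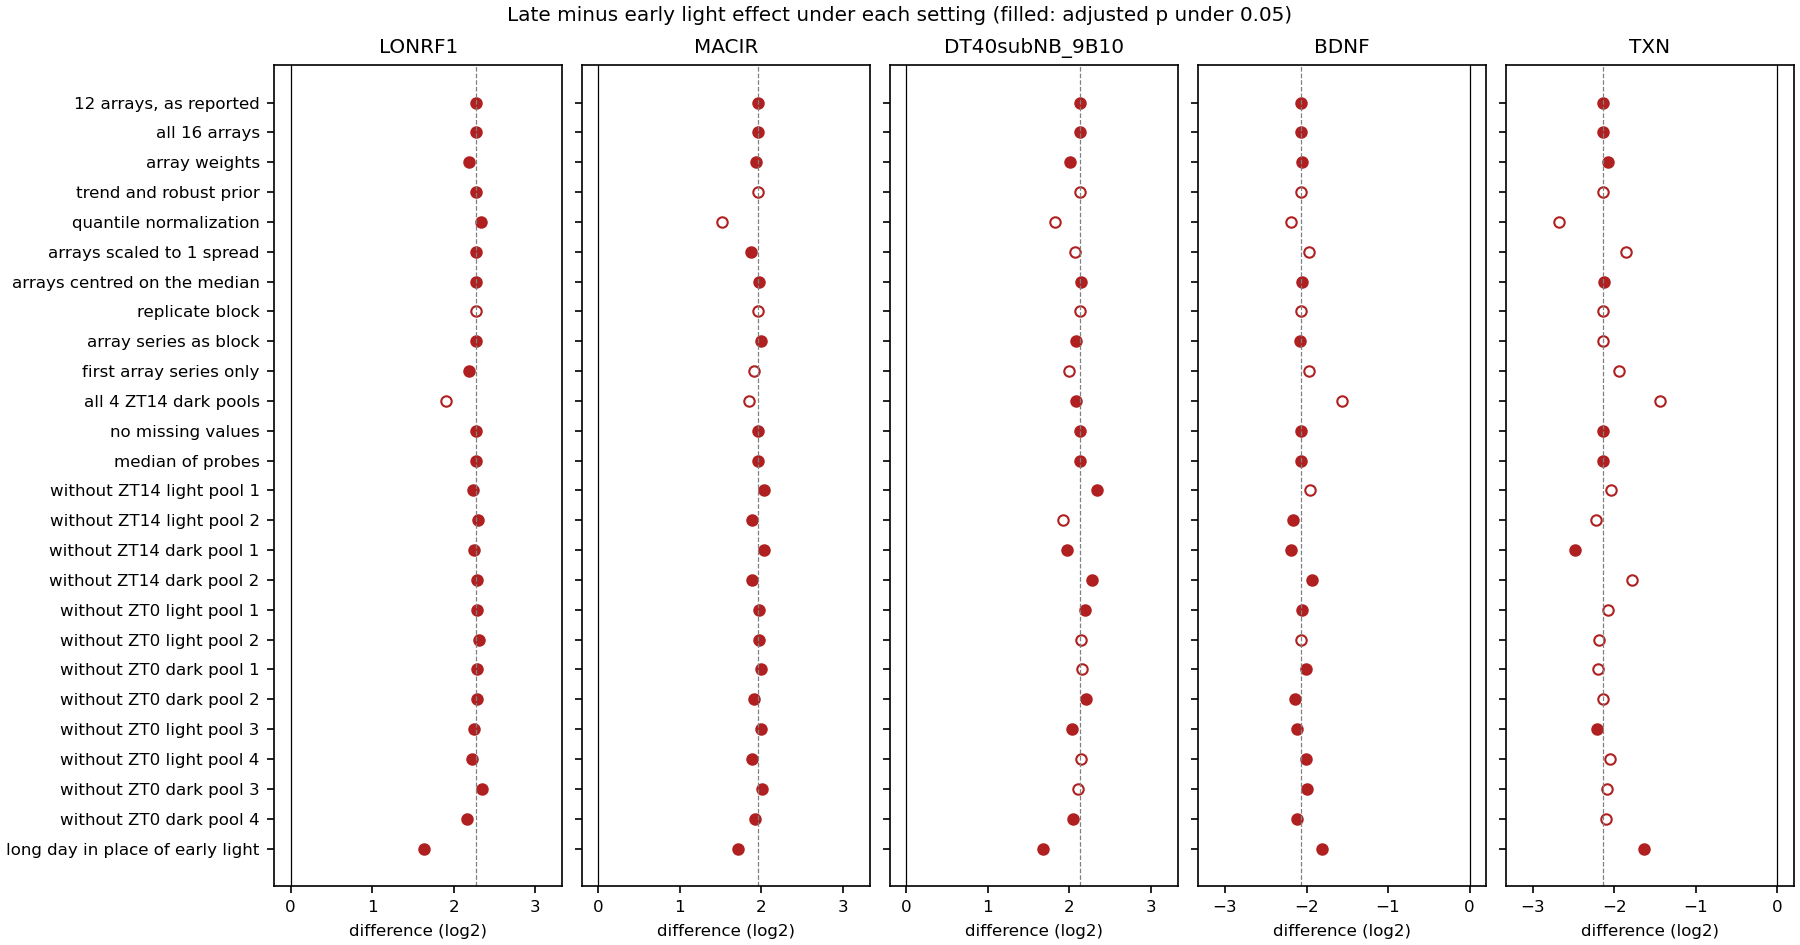
Difference between late and early light effects (log2, horizontal axis) of the 5 called genes (panels) as reported and under each alternative (rows), filled where the adjusted p was under 0.05 and dashed at the reported value, among them leaving out each pool, the first array series alone and the long day in place of the early light. The sign of each gene holds under every alternative shown, with LONRF1 between 2.17 and 2.35 as pools were left out.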

How the data were processed

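Glands pooled from chicks were hybridised, 1 pool to an array, against a reference made from all pools, per the labels' protocols. The deposited table holds the authors' log ratio per probe, taken here as log2; the background correction, the normalization and the numerator are not stated in those labels or the table. Of 15769 probes, 160 control spots (5 names with 32 spots each) were left out. The platform annotation gave 9628 of the remaining 15609 probes a symbol. Probes of 1 symbol were averaged (1918 genes had several), unnamed probes were kept singly, and 53 of 12691 genes without a value on at least 2 arrays in each group were removed.

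Each of the 12 arrays entered 1 fit with 4 group means in limma 3.58.1 under R 4.3.3 (8 residual degrees of freedom, 3.35 from the prior). That fit shares 1 variance per gene over the 4 groups. Standard errors and p-values of the early effect thus do not measure the spread of the ZT14 pools alone. P-values were adjusted by Benjamini-Hochberg over all 12638 genes, and genes were called at an adjusted p under 0.05. Nothing states that pools came from separate cages or days, so the p-values cover pool-to-pool spread, which may be technical. A run of the fit on simulated data took arrays as independent, with the same spread of a gene in every group. Real arrays differed in spread and those of the second series correlated, so that run does not measure how reliable the calls are. Values in the text are log2 differences with the standard error of the fit.

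Named genes were those called, the 12 smallest p in each direction, up to 3 members of each list with an unadjusted p under 0.05, a fixed set of clock, light and metabolic genes, the 5 smallest p in each direction for the mean effect, and called unnamed probes. The genes, the 29 lists and the rules were chosen with earlier results of these data known. Alternatives covered weights, prior, normalization, probe averaging, missing values, arrays entered, blocks and leaving out each pool. Promoter sequences were not analysed here.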

Additional observations from a re-analysis of the deposited data

Results flagged for a closer look

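In 5 genes the light effect differed between the end and the beginning of the night by the test of the difference itself: LONRF1 (2.27), MACIR (1.96), BDNF (-2.06), DT40subNB_9B10 (2.13) and TXN (-2.13), as log2 differences. Among the 140 groups of 4 pools of the 70 named genes, 6 held a pool far from the rest by Dixon's criterion, which chance meets in about 1 of 20 groups. Lit pool 4 of ZT0 stood apart for SULF2, at -0.094 against -0.72 to -0.63 in the others, and for CRY1, at -1.81 against -0.27 to -0.13. Lit pool 3 of ZT0 stood apart for CLOCK, at -0.17 against -0.51 to -0.47, and for ANAPC2, at 0.81 against 0.21 to 0.29. Dark pool 4 of ZT0 stood apart for RPS23, at 0.66 against 0.08 to 0.14, and for DNAJA2, a co-chaperone of HSP70, at 2.08 against 0.33 to 0.52. Lit pool 4 and dark pool 4 belong to the second series of array numbers and lit pool 3 to the first.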

How the results depend on the processing

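The 5 called differences kept their direction under every alternative run, but not their calls. The count of called genes was 1 with a trended and robust prior, 1 with quantile normalization and 1 in the first array series (LONRF1 each time), 2 with arrays scaled to 1 spread, 1 with the long-day dark pools added to the ZT14 controls (DT40subNB_9B10), and 2 to 76 as each pool was left out. The 76 arose without dark pool 1 of ZT14, 14 without dark pool 2, and 8 and 9 without lit pools 1 and 2; a lone pool was then assumed to vary like the other groups. The long day in place of the early light, chosen after seeing the data, gave 111 calls and turned MLYCD from 0.47 to -1.67. That fit shares its variance between these arrays and the more widely spread arrays of the long-day experiment. The early effect, with 3 calls, gave 1 on all 16 arrays, 0 with the trended prior, 0 with quantile normalization, 0 with all 4 dark pools, and 2 to 145 as pools were left out, the 145 without dark pool 1 of ZT14. The late effect gave 0 to 1 and the mean effect 0 to 64 as pools were left out, and the mean effect 1 with quantile normalization, against 0 otherwise. With the replicate number as a block, 0 genes were called for the difference (limma; 1115 at an unadjusted p under 0.05) and 0 for the early effect. The numbers were not taken to pair the pools: deviations of same-numbered pools correlated at -0.000819 to 0.309, and not every pool correlated best with its own number. The cause of these changes was not tested. Of the list medians, those of the core clock, ER folding, respiratory, ribosomal, lymphocyte and fibroblast lists kept their sign in all 24 alternatives. So did those of the melatonin and cofactor, phototransduction and retinoid, activity-induced, heat shock, glucose, cell cycle, macrophage, red blood cell and glia lists. The median of splicing factors turned in 12. With 2 pools a group at ZT14, the early effect limits every difference.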
